A study of Mus musculus with 2 samples.

Results

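H19-high resting basal keratinocytes are the nondividing basal cells of the neonatal epidermis that carried the most RNA of H19, an imprinted noncoding RNA. They were chosen from their own counts. A barcode was kept when it had 900 to 7700 genes and under 10% of its unique molecular identifiers (UMIs, each standing for 1 captured transcript) in mitochondrial genes. A kept cell was resting basal when Krt14 and Krt5 together made up at least 0.8% of its UMIs, Krt1 and Krt10 together under 0.8%, Lhx2 and the sum of Mki67 and Top2a each reached at most 1 UMI, and Rrm2 was 0. It was H19-high with 8 or more H19 UMIs. The rule found 950 cells of 19488 kept, with 339 in KO mouse 1 and 611 in KO mouse 2. The other 4005 of the 4955 resting basal cells are called H19-low here.

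The data were droplet single-cell RNA libraries of the epidermis of 2 male C57BL/6J mice on postnatal day 0. Both mice were Chrm3 KO and so lacked the M3 muscarinic acetylcholine receptor in every cell, keratinocytes included. No WT library was used here, so no value below is an effect of the genotype. The libraries come from epidermis without dermis, and a kit had depleted nonviable cells. The libraries held 10816 and 15867 barcodes with 109756784 and 166441732 UMIs. Chrm3 itself gave 2 UMIs in the members from each mouse, and its 3′ tag may lie outside the deleted part, so this level does not check the label. Among the kept cells 34 barcode sequences occurred in both libraries, and 0 of these were H19-high in both.

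Basal keratinocytes sit on the basement membrane, hold it through hemidesmosomes, make Krt14 and Krt5, and feed the layers above them. H19 and Igf2 are neighbours in an imprinted cluster on chromosome 7: H19 is made from the maternal copy and Igf2, a fetal growth factor, from the paternal copy, and both share enhancers. H19 is abundant in embryonic tissues and falls after birth. It is also the host of the microRNA miR-675.

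H19 lies on the minus strand of chromosome 7 from 142575529 to 142578143 in GRCm38, where the GENCODE M21 annotation calls it a lincRNA, and Igf2 lies on the same strand from 142650766 to 142666816. Exon 1 of H19 holds both arms of miR-675, at 142577112 to 142577133 and at 142577078 to 142577099. The 3′ UMI counts report the host transcript and not the processed microRNA. The arms are shown because they are the known processed product of the RNA that defines these cells. The RefSeq sequences have the seed, bases 2 to 8, in capitals:
mmu-miR-675-5p: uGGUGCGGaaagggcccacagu
mmu-miR-675-3p: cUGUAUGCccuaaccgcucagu
The arms have different seeds. Igf2 is the gene whose level followed H19 most closely below, and RefSeq lists 4 start sites for it on GRCm38.p6. The window at chr7:142657447-142657746, minus strand, held the most GC boxes of the 4, and its GC boxes (GGGCGG, searched on both strands) are in capitals:
Igf2 start-site window: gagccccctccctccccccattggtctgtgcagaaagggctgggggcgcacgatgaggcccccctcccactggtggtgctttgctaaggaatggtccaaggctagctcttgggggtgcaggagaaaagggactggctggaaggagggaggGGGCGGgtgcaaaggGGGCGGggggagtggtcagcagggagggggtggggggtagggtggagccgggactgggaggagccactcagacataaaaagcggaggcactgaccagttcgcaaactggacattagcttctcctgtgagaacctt
This window held 2 GC boxes and 0 matches to TATAAA. Of 32851 mouse promoter windows of this length, 35.66% held GGGCGG and 13.62% held TATAAA. These counts describe the letters of the window, and 3′ UMI counts do not tell which start site was used.

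H19-high cells made up 18% of resting basal cells in KO mouse 1 (95% exact binomial interval 16.29 to 19.81%) and 19.89% in KO mouse 2 (18.49 to 21.35%), a mean of 18.95 ± 1.33% (SD, n = 2). Of all kept cells they were 4.456% (4.004 to 4.944%) and 5.143% (4.752 to 5.555%). The mice thus held similar shares. These intervals, like all others here, cover counting error only.

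The members carried a median of 15 H19 UMIs in KO mouse 1 and 14 in KO mouse 2, with quartiles of 10 to 21 and 10 to 22 and maxima of 85 and 62. In 62.37% and 57.42% of the H19-low cells H19 had no UMI at all. The limit of 8 UMIs divided a continuous range and not separate groups: 84 and 138 cells had 6 or 7 UMIs, and 73 and 115 cells had 8 or 9. Igf2 stood at 156 and 138 counts per 1000000 UMIs (CPM) just under the limit and at 146 and 102 CPM just over it. Members were also deeper, with medians of 10941 and 11282 UMIs against 8648 and 8713 in H19-low cells, and a limit in absolute UMIs is easier to reach in a deeper cell.

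Pooled over its cells, the H19 level of the members was 1506 and 1457 CPM (in the order KO mouse 1, KO mouse 2, here and below). Because only the 3′ end is counted, CPM needs no correction for length. Cycling basal cells, which met the same keratin limits but exceeded a limit on Mki67 and Top2a or had Rrm2, held 572 and 570 CPM. Transitional cells, with both keratin pairs at 0.8% or more, held 516 and 543 CPM. H19-low cells (111 and 131 CPM) and differentiated cells, which had passed the Krt1 and Krt10 limit and lost the basal one (74.5 and 93.6 CPM), came next, followed by cells with more than 1 Lhx2 UMI (29.6 and 51.2 CPM). Melanocytes, gated on their own markers, held 6.24 and 13.0 CPM and Langerhans cells 7.59 and 6.77 CPM, levels seen in cells that should lack this RNA. The order of the keratinocyte classes was the same in both mice, and only the melanocyte and Langerhans values overlapped among the classes above. Cells gated on T cell markers (48 and 33) held 11.1 and 32.2 CPM, which overlapped the melanocytes and the Lhx2 cells. The members lead this order by the rule itself.

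**Figure D1:**
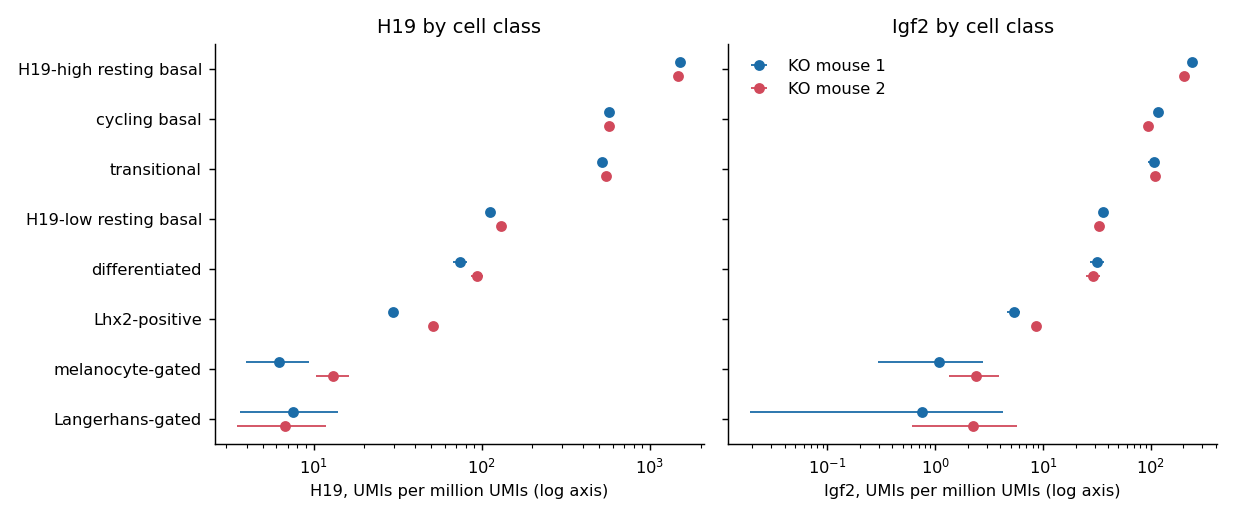
H19 (left) and Igf2 (right) in CPM on a log axis for 8 cell classes, with 1 point per KO mouse and 95% exact Poisson bars that cover counting error only. H19 runs from 1506 and 1457 CPM in the members to 6.24 and 13.0 CPM in melanocytes and 7.59 and 6.77 CPM in Langerhans cells, and Igf2 keeps nearly the same order with members at 242 and 203 CPM.

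Depth was made equal by thinning each cell to 3000 UMIs, which left out 0 and 1 members and 8 and 68 H19-low cells. Igf2 was then seen in 43.95% and 41.97% of members, in 9.049% and 8.232% of H19-low cells and in 0 of 365 and 0.1715% of melanocytes. In the few cells gated on T cell markers, 48 and 33, it was seen in 8.333% and in none, with 33.4 and 6.43 CPM. Without thinning these shares were 83.19% and 78.56% of members, 18.65% and 19.18% of H19-low cells and 0.8086% and 1.701% of melanocytes. The share in members stood above those of the other classes named in both mice. Among the members alone the share of UMIs that were Igf2 and the share that were H19 had a Spearman rho of 0.31 over 339 cells and 0.38 over 611 cells, a description of cells that share a library and whose H19 counts also followed depth (rho 0.33 in each mouse).

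Across resting basal cells grouped by H19 UMIs, Igf2 went up at every step. In KO mouse 1 its level was 9.76 CPM in cells with no H19 UMI, 38.3 CPM with 1 or 2, 117 CPM with 3 to 7, 189.5 CPM with 8 to 15, 259.9 CPM with 16 to 31 and 414 CPM with 32 or more. In KO mouse 2 the same bins held 9.06, 33.1, 96.6, 157, 239 and 312 CPM. The secreted matrix protein gene Sparc climbed from 189.8 and 241 CPM in cells with no H19 UMI to 714 and 733 CPM in the top bin. Other genes were lowest in the top bin. Sox4, a transcription factor of immature and migrating epithelium, went from 646 and 566 CPM to 92.4 and 112 CPM, and the Hedgehog receptor and target Ptch1 from 127 and 155 CPM to 39.9 and 41.0 CPM. The fall was not stepwise in each mouse: with 1 or 2 H19 UMIs Sox4 in KO mouse 2 stood at 615 CPM and Ptch1 in KO mouse 1 at 163 CPM. Dcn, a small matrix proteoglycan, was highest in the middle, at 587 and 703 CPM with 1 or 2 H19 UMIs, and lowest in the top bin at 103 and 174 CPM. The top bin held 34 and 50 cells.

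**Figure D2:**
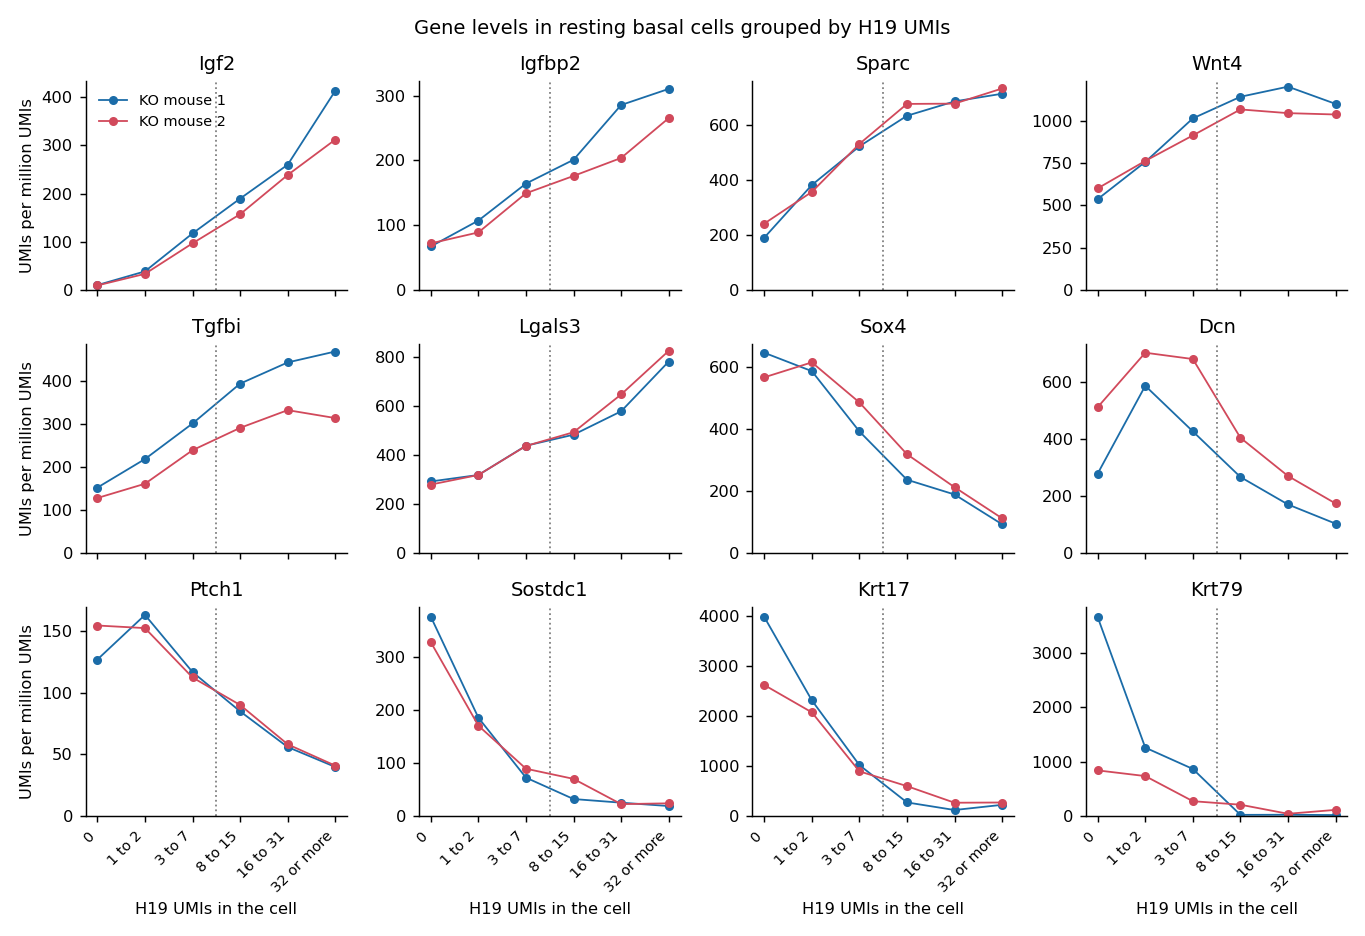
Levels of 12 genes in CPM (vertical axes from 0) in resting basal cells grouped by their H19 UMIs (horizontal axes), 1 line per KO mouse, with the limit of 8 UMIs as a dotted line. Igf2 rises from 9.76 and 9.06 to 414 and 312 CPM, Sox4 ends at 92.4 and 112 CPM, and Krt79 is above 800 CPM only left of the limit.

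To test other genes, UMIs were summed per mouse over members, H19-low cells, cycling basal cells and transitional cells, and the 8 sums were fitted together in edgeR. Members were compared with H19-low cells, and a gene was called at an adjusted p under 0.05. Outside the 9 genes of the rule, 819 of 11596 genes were called (7.06%): 365 were higher in members (3.15%) and 454 lower (3.92%). Of the lower genes 67 reached the count limit of the filter (1.31 CPM) in no member sum and so passed it through other classes, which fixed their direction, and 3 of the higher genes reached it in no H19-low sum. Some genes of secreted matrix, basal anchorage and insulin-like growth factor signalling were among the higher ones, while other genes of these groups were lower or not called. Some genes of the hair follicle and the sebaceous gland were among the lower ones. The counts of each group, with the settings in which they fell, are given below. With the mouse as a block 2256 genes were called (19.5%), 1197 higher (10.3%) and 1059 lower (9.13%), and all 819 genes were among them.

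The resting classes differed in follicle keratins. Cells with more than 1 Krt79 UMI or with Krt17 at 0.05% of UMIs or more, keratins of the hair follicle and its infundibulum, were 56.61% and 59.12% of H19-low cells but 13.57% and 26.02% of members. The Krt17 limit alone was met by 54.21% and 55.42% of H19-low cells and 11.21% and 17.51% of members. The Krt79 limit alone was met by 14.12% and 2.95% in KO mouse 1, but by similar shares in KO mouse 2, 12.84% (11.54 to 14.23%) and 11.78% (9.335 to 14.61%). With all cells that met either limit removed from every class, a choice made after the data were seen, 141 of 10605 genes were called (1.33%), 65 higher (0.613%) and 76 lower (0.717%), and 130 of them were among the 819. Of the 753 called genes that still had a value, 732 kept their direction. The removal also lowered the number of cells in every class, and the part of each in the lower count was not tested. The second fold change or call is given below as "without follicle-keratin cells". Leaving out 1 sum lowered the 819 to 252 without the H19-high cells of KO mouse 1, to 390 without those of KO mouse 2 and to 442 without the H19-low cells of KO mouse 1. Mitochondrial shares also differed, with medians of 6.388 and 5.742% in members against 5.997 and 5.469% in H19-low cells, and cells under 5% gave only 15 calls with 6 and 77 members left. The part of the mitochondrial share in the other calls was not tested.

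Among the 15 largest increases Igf2 came first. This fetal growth factor gene stood at 242 and 203 CPM in members and 35.7 and 33.2 CPM in H19-low cells, with cycling cells between them at 117 and 93.6 CPM. Its log2 fold change was 2.82 ± 0.12 (SE) and 2.06 without follicle-keratin cells, and since Igf2 was named as a marker of these cells no p is given. Igfbp2, which encodes a secreted binding protein for these factors, held 245 and 195 CPM against 93.5 and 92.1 CPM (log2 fold change 1.37 ± 0.14, adjusted p = 0.00094), and 0.94 without follicle-keratin cells (adjusted p = 0.0127). The lowest member sum lay above the highest H19-low sum for both genes; among all tested genes the sums of the classes did not overlap, in either direction, in 54.5%. Igfbp4, another binding protein, went the other way, with 25.8 and 24.8 CPM against 129 and 99.5 CPM (-2.05 ± 0.22, adjusted p = 0.00117), and -1.58 without follicle-keratin cells (adjusted p = 0.00898). Of 15 tested genes of insulin-like growth factor signalling 2 were higher, 1 was lower and 12 were not called, beside 7.06% called among all genes, and with any 1 sum left out 3 were called. The receptors were among those not called: Igf1r, which carries the growth signal, had 74.2 and 52.3 CPM against 74.2 and 57.4 CPM, and Igf2r, which clears IGF2, had 12.4 and 12.2 CPM against 11.5 and 9.51 CPM.

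Of 14 tested imprinted growth genes besides H19, 1 was called, Igf2, a marker of these cells, beside 7.06% called among all genes. With 1 sum left out 1 to 3 were called, and with doublets removed 3 and 4. The median log2 fold change was 0.41 against 0.002 for all genes. With the mouse as a block 6 were higher and 1 lower, beside 10.3% and 9.13% among all genes. Peg3 had 110 and 97.6 CPM in members and 106 and 98.6 CPM in H19-low cells, and its log2 fold change was 0.15 ± 0.09 (adjusted p = 0.371). Grb10, an adaptor that dampens growth factor receptors, had 8.58 and 6.12 CPM against 3.94 and 3.84 CPM and missed the threshold (1.01 ± 0.28, adjusted p = 0.0658; with the block 0.0139). Cdkn1c, a cell cycle inhibitor of the neighbouring imprinted domain, had 16.2 and 21.4 CPM against 21.2 and 23.7 CPM (adjusted p = 0.784).

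Basement membrane and matrix genes were called in both directions, 7 higher and 3 lower of 19 tested, beside 3.15% and 3.92% among all genes. With the mouse as a block 9 were higher and 5 lower, beside 10.3% and 9.13% among all genes. Dcn, lower in both mice, was among these 5 (adjusted p = 1.96e-05, against 0.18 without the block). Sparc had 662 and 683 CPM in members against 292 and 329.6 CPM (1.24 ± 0.10, adjusted p = 0.000462; without follicle-keratin cells 0.78, adjusted p = 0.00898). Tgfbi, which encodes a matrix adaptor for integrins, had 420.3 and 308.5 CPM against 193.5 and 159 CPM (1.18 ± 0.18, adjusted p = 0.00544). Postn, the gene of periostin, had 329.9 and 296 CPM against 163 and 170.2 CPM, and Fras1, which builds a bridge below the embryonic epidermis, had 161.5 and 124 CPM against 80.7 and 67.5 CPM. Transitional cells held about as much Postn as members, at 334.6 and 296.2 CPM. They held less Sparc (73.2 and 58.3 CPM), Tgfbi (177 and 143.5 CPM) and Fras1 (75.4 and 65.0 CPM). In Sparc, Tgfbi, Postn and Fras1 the member sums lay above the H19-low sums, beside 54.5% of all tested genes whose sums did not overlap. Without follicle-keratin cells only Sparc of them was called, with 0.76 for Tgfbi, 0.38 for Postn and 0.46 for Fras1 (adjusted p of 0.0915, 0.0749 and 0.242). Col7a1, the anchoring fibril collagen, and the low-level genes Lamb1 and Thbs1 were the other higher ones, and none of them was called without follicle-keratin cells (0.42, 0.96 and 0.47, against 0.67, 1.09 and 0.90 over all cells; adjusted p of 0.156, 0.0692 and 0.357). The basement membrane collagen gene Col4a1 was lower, at 42.4 and 38.5 CPM against 123.2 and 123.4 CPM (-1.49 ± 0.10, adjusted p = 0.000185; without follicle-keratin cells -1.28, adjusted p = 0.00533). Its partner Col4a2 and the matrix gene Fbln1 were lower as well, and neither was called without follicle-keratin cells (-0.87 and -0.48). Leaving out 1 sum left 7 to 9 calls in this group.

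Itga6 and Itgb4, the 2 chains of the hemidesmosome integrin, were called as higher of 9 tested hemidesmosome and laminin-332 genes, beside 3.15% higher among all genes. With the mouse as a block 7 were higher and 0 lower, beside 10.3% and 9.13% among all genes. These 7 included Col17a1, a marker of these cells, Dst (adjusted p = 0.00327, against 0.393 without the block) and Lama3 (0.048, against 0.521). In the fit without the block the calls of Itga6 and Itgb4 were lost when the H19-high sum of KO mouse 1 or either H19-low sum was left out. Itga6 had 326 and 258 CPM against 218 and 190.4 CPM (0.64 ± 0.16, adjusted p = 0.0448), and Itgb4 had 200.2 and 164 CPM against 139.7 and 137 CPM (0.52 ± 0.11, adjusted p = 0.0274). Neither was called without follicle-keratin cells (0.36 and 0.27). Col17a1, the hemidesmosome collagen listed as a marker of these cells, had 586 and 425 CPM in members and 430.1 and 327 CPM in H19-low cells, groups that overlapped between the mice (0.55 ± 0.22). Within each mouse the members were higher, by a log2 difference of 0.445 and 0.377. As for Igf2 no p is given. Itgb1, the main basal integrin chain, had 286 and 285.5 CPM against 222 and 239 CPM and was higher (0.44 ± 0.07, adjusted p = 0.00907; without follicle-keratin cells 0.31, adjusted p = 0.0951), whereas Itgb8 was lower at 0.505 and 2.09 CPM against 16.5 and 10.8 CPM (-3.04 ± 0.43, adjusted p = 0.00428; without follicle-keratin cells -3.05). Of 15 basal markers outside the rule 7 were higher and 2 lower, with a median of 0.55, beside 3.15% and 3.92% among all genes, and 2 to 6 were called with 1 sum left out. Without follicle-keratin cells none of the 7 was called, and Apoe, lower over all cells, was the 1 marker called, as higher. Krt15, a keratin of basal cells, led in level, with 7494 and 5815 CPM against 5102 and 4101 CPM (0.66 ± 0.16, adjusted p = 0.0344; without follicle-keratin cells 0.25). Krt14 and Krt5, which the rule used, were at 18600 and 19400 CPM and at 8924 and 9098 CPM in members, and at 12740 and 12990 CPM and at 6141 and 6274 CPM in H19-low cells.

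**Figure D3:**
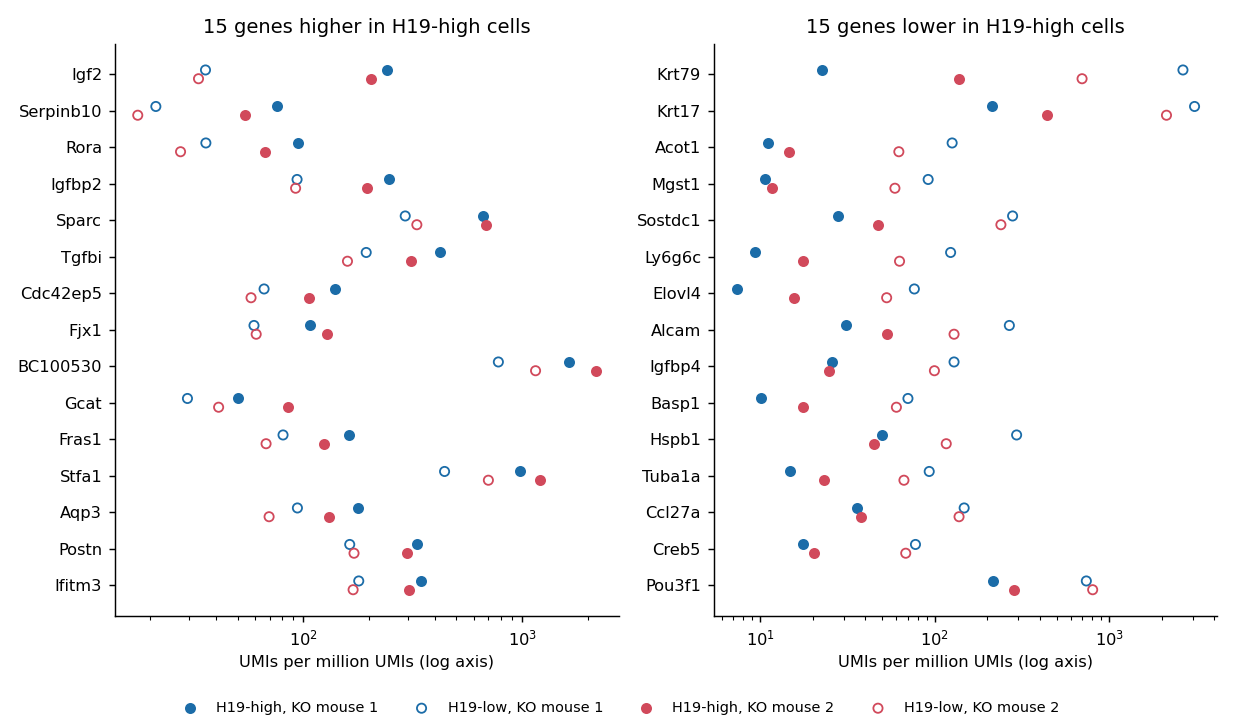
Levels in CPM (log axes) of the 15 genes with the largest increase (left) and the 15 with the largest decrease (right) in members, filled for members and open for H19-low cells, coloured by KO mouse. The genes were chosen to have the same direction in both mice. Igf2 lies at 242 against 35.7 CPM and 203 against 33.2 CPM, and Krt79 at 22.7 against 2642 CPM and 137 against 698 CPM.

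Cell contacts and differentiation genes showed no common direction. Of 22 tested junction genes 3 were higher and 3 lower, beside 3.15% and 3.92% among all genes. In this group 0 were called without the H19-high sum of KO mouse 1, 2 without that of KO mouse 2 and 2 without the H19-low sum of KO mouse 1. The desmosomal cadherin gene Dsg3, at 29.5 and 27.3 CPM against 22.2 and 20.2 CPM, rose by 0.55 ± 0.13 (adjusted p = 0.0383) and by 0.90 without follicle-keratin cells (adjusted p = 0.0192). Gja1 (connexin 43) and Evpl (envoplakin) were also higher. Both stood higher in transitional cells (254 and 260 CPM, 64.2 and 65.6 CPM) than in members (209 and 177 CPM, 28.3 and 25.9 CPM). Dsg3 did not, with 26.3 and 19.6 CPM in transitional cells. Gjb2 and Gjb6, connexins 26 and 30, were lower, and so was Ctnnb1, which encodes beta-catenin (-0.36 ± 0.07, adjusted p = 0.0163). Of 23 suprabasal genes outside the rule 1 was higher and 2 were lower, beside the same shares, and 2 to 7 were called with 1 sum left out. With the mouse as a block 6 junction genes were higher and 7 lower and 5 suprabasal genes higher and 9 lower, beside 10.3% and 9.13% among all genes. Sfn, the gene of 14-3-3 sigma, was the higher one at 917 and 939 CPM against 780.5 and 707.5 CPM (0.45 ± 0.07, adjusted p = 0.00694), and Elovl4 and Cst6 were the lower ones. Transitional cells held more Sfn than members, at 1641 and 1644 CPM. Krt1 and Krt10, held down by the rule in both classes, had 457 and 811 CPM and 579 and 892 CPM in members. Jag2 was the called gene of 11 in the Notch pathway, and it was higher (0.46 ± 0.10, adjusted p = 0.0287; without follicle-keratin cells 0.25), beside 7.06% called among all genes. The call of Jag2 was lost under DESeq2, at matched depth (cells with 8000 to 16000 UMIs) and when any 1 of the 4 sums was left out. With the block 4 Notch genes were higher and 1 lower. Of these genes Dsg3, Ctnnb1 and Sfn were called without follicle-keratin cells, and Gjb6 then fell below the filter on low counts. Gja1, Evpl and Gjb2 were then at 0.353, 0.352 and -0.415, against 0.581, 0.434 and -2.173 over all cells. Elovl4 and Cst6 were at -0.284 and 0.058, against -2.262 and -2.077.

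The 8 called Wnt genes of 27 tested were 4 higher and 4 lower, beside 3.15% and 3.92% among all genes, and 4 to 7 were called with 1 sum left out. The higher ones were the ligand genes Wnt4, Wnt3a, Wnt10a and Wnt7b. Wnt4 was the most abundant, at 1160 and 1058 CPM in members against 672 and 706 CPM (0.81 ± 0.08, adjusted p = 0.000745), and Wnt7b differed least, at 123.2 and 123.4 CPM against 109.5 and 111 CPM (0.29 ± 0.07, adjusted p = 0.0414). Without follicle-keratin cells none of the 4 ligand genes was called, and Wnt4 was at 0.35 (adjusted p = 0.052). Wnt3a and Wnt10a were then at 0.434 and 0.198, against 0.93 and 0.595 over all cells. Wnt7b was not smaller, at 0.335 (adjusted p = 0.107) against 0.289. The receptor genes Lgr6, Lgr4 and Fzd7 and the secreted inhibitor gene Sostdc1 were lower. Sostdc1 had 28.0 and 47.6 CPM against 279 and 239 CPM (-2.60 ± 0.18, adjusted p = 0.00022; without follicle-keratin cells -1.58, adjusted p = 0.00586). Lgr6, a receptor for R-spondins found on follicle stem cells, had 7.57 and 9.74 CPM against 33.9 and 46.2 CPM (-2.05 ± 0.20, adjusted p = 0.00083; without follicle-keratin cells -2.36, adjusted p = 0.00365). Lgr4 and Fzd7 were not called without follicle-keratin cells (-0.48 and -0.58). The remaining 19 Wnt genes were not called, among them the Wnt transcription factor gene Lef1 with 109.3 and 109.2 CPM against 98.3 and 117 CPM. Of 15 Bmp and Tgf-beta genes 3 were lower, beside 3.92% among all genes, the ligands Tgfb2 and Tgfb3 and the activin antagonist Fst. Fst had 154.5 and 197.5 CPM against 405.2 and 396 CPM (-1.05 ± 0.12, adjusted p = 0.00219; without follicle-keratin cells -0.64, adjusted p = 0.0944). Without the H19-high sum of KO mouse 1 only 1 Bmp or Tgf-beta gene was called, and without follicle-keratin cells 0 of 12 tested were, with Tgfb3 at -0.74 (adjusted p = 0.516) and Tgfb2 not tested. With the block 7 Wnt genes were higher and 6 lower, and 3 Bmp and Tgf-beta genes higher and 5 lower, beside 10.3% and 9.13% among all genes. Of 7 genes of the Egf receptor family only the ligand gene Tgfa was called, at 1.26 and 1.25 CPM against 8.89 and 4.29 CPM. It passed the filter through other classes, and its call was lost without either H19-high sum and with split UMIs. With the block 2 genes of this family were higher and 1 lower, beside 10.3% and 9.13% among all genes. The receptor gene Egfr was among the higher ones (adjusted p = 0.000848, against 0.143 without the block).

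Transcription factor genes of basal cells were mostly lower where they were called, 8 of 19 against 2 higher, with a median of -0.33, beside 3.92% lower and 3.15% higher among all genes. Without the H19-high sum of either mouse 3 of these genes were called, and without the H19-low sum of KO mouse 1 there were 4. Sox4 had 202 and 258 CPM against 586 and 561 CPM, and its fold change was nearly the same with and without follicle-keratin cells (-1.19 ± 0.11, adjusted p = 0.000745, and -1.19, adjusted p = 0.00231). Foxp1 was the other one called in both settings, at 78.7 and 77.6 CPM against 168 and 135 CPM (-0.82 ± 0.11, adjusted p = 0.00297). Barx2, Nfib, Tfap2a, Hmga2, Id1 and Id3 were lower over all cells (-1.15, -0.36, -0.34, -2.39, -0.84 and -0.41) and not called without follicle-keratin cells. They were then at -0.30, -0.20, -0.30, -1.58, -0.36 and -0.67, so only Id3 had a larger difference. Bnc1 and Sox6 were higher, Bnc1 at 19.7 and 18.8 CPM against 11.1 and 12.9 CPM (0.79 ± 0.15, adjusted p = 0.0151), and neither was called without follicle-keratin cells (0.62 for Bnc1 and 0.14 for Sox6). Trp63, the master factor of basal keratinocytes, had 212 and 164.5 CPM against 202.5 and 174 CPM, which overlapped (0.13 ± 0.13, adjusted p = 0.662).

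The gates on Mki67, Top2a and Rrm2 held both resting classes low in cell cycle genes, so the values of other such genes are a description. Of 33 S-phase genes E2f8 was called as higher, at 3.79 and 5.70 CPM against 2.78 and 2.54 CPM. Of 36 G2/M genes Ccnb2 was called as lower, at 1.51 and 2.09 CPM against 3.87 and 5.27 CPM. Their log2 fold changes were 1.02 and -1.18, and 0.80 and -1.16 without follicle-keratin cells, where neither was called. Both calls were also lost without either H19-high sum. Among all genes 3.15% were higher and 3.92% lower. With the block 5 S-phase genes were higher and 0 lower, and 2 G2/M genes higher and 1 lower, beside 10.3% and 9.13% among all genes. In cycling basal cells these genes stood at 29.5 and 27.2 CPM and at 86.7 and 81.9 CPM. Summed over all S-phase genes the members held 1085 and 1187 CPM and H19-low cells 1038 and 1185 CPM, and summed over G2/M genes 1111 and 1210 CPM against 1182 and 1269 CPM. Of the D cyclins Ccnd3 was higher (0.62 ± 0.13, adjusted p = 0.0243; without follicle-keratin cells 0.43, adjusted p = 0.101) and Ccnd1 lower (-0.52 ± 0.09, adjusted p = 0.00952), and Ccnd1 was at 0.17 without follicle-keratin cells. Without the H19-high sum of KO mouse 1 neither was called, and with the block 1 of 9 genes of this list was higher and 5 were lower, beside the same shares. Of 22 immediate early and stress genes only Hspa1a was called, as lower, beside 7.06% called among all genes, and its call was lost without either H19-high sum and without follicle-keratin cells. With the block 14 were higher, beside 10.3% among all genes, among them Fos at 1232 and 800.4 CPM against 974 and 562 CPM (adjusted p = 0.392; with the block 6.64e-05).

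Hair follicle genes made the largest group of lower genes, 11 of 22 tested, with a median log2 fold change of -0.93, beside 3.92% lower among all genes, and 7 to 10 were called with 1 sum left out. Krt17 had 212 and 441 CPM in members against 3079 and 2126 CPM (-2.85 ± 0.31, adjusted p = 0.00124). Krt79, the keratin of the infundibulum and its opening, had 22.7 and 137 CPM against 2642 and 698 CPM (-4.19 ± 0.78, adjusted p = 0.0143), so that its size differed strongly between the mice. In KO mouse 2 the share of cells with more than 1 Krt79 UMI was similar, 11.78% of members and 12.84% of H19-low cells. There Krt79 stood at 272 CPM in cells with 6 or 7 H19 UMIs and at 532 CPM with 8 or 9. In KO mouse 1 these bins held 1977 and 21.4 CPM. Removing the cells by these very keratins brought the fold changes of Krt17 and Krt79 to -0.55 and -0.41. Sox9, a factor of the follicle stem cells, stayed called without these cells. It had 6.56 and 12.4 CPM against 62.9 and 49.6 CPM (-2.35 ± 0.23, adjusted p = 0.00083; without follicle-keratin cells -1.32, adjusted p = 0.0435). Ptch1, Gli1, Runx1, Nfatc1, Edar (which passed the filter through other classes), Pthlh and Foxc1 were among the other lower genes, and none of these 7 was called without follicle-keratin cells. Their log2 fold changes were then -0.09 for Gli1, -0.37 for Ptch1, -0.76 for Foxc1, -0.83 for Runx1, -0.94 for Nfatc1, -1.91 for Edar and -2.06 for Pthlh, of which Edar had been at -2.04 and Pthlh at -3.17 over all cells. The summed level of the whole list was 463 and 833 CPM in members and 6282 and 3326 CPM in H19-low cells.

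Markers of other cell types were scarce in the members. Of 7 sebaceous genes 6 were tested and 5 were called as lower, beside 3.92% among all genes, but Awat2 (0 UMIs in members) and Elovl3 (0 and 0.417 CPM) passed the filter through other classes, so their direction was fixed. With 1 sum left out 2 to 4 were called, and at matched depth 1. Without follicle-keratin cells 2 were tested, Scd1 (-0.68) and Plin2 (-0.74), and 0 were called. The list summed to 15.1 and 21.7 CPM against 134 and 86.4 CPM. Its most abundant gene was Scd1, at 9.59 and 7.23 CPM against 55.9 and 29.8 CPM, and Mc5r and Awat2 had 0 UMIs in members. Of 16 mesenchymal genes 5 were tested and 2 were lower, beside 3.92% lower among all genes. They were Fn1 at 2.78 and 4.87 CPM against 22.6 and 30.4 CPM (-2.58 ± 0.25, adjusted p = 0.00083) and Col1a2, which passed the filter through other classes. Without follicle-keratin cells Fn1 was called (-2.52), and Col1a2 was not (-2.28, against -2.42 over all cells). This list summed to 35.1 and 76.2 CPM in members and 74.9 and 101 CPM in H19-low cells, with Vim the most abundant (16.7 and 58.0 CPM in members), and Col1a1, Lum, Pdgfrb, Dpt and Mfap5 had 0 UMIs in members. Without cells that had 3 or more Col1a1, Col1a2 and Col3a1 UMIs together 822 genes were called. Neither the 7 tested melanocyte genes nor the 6 Langerhans and myeloid genes nor the 4 T cell genes gave a call, beside 7.06% called among all genes. With the block 2 melanocyte genes and 1 Langerhans and myeloid gene were called, beside 19.5% among all genes. With doublets removed at one score limit 2 melanocyte genes were called, beside 878 of 11520 among all genes. At matched depth 1 Langerhans and myeloid gene was called, beside 552 of 10965. Without a filter on low counts 3 melanocyte, 3 Langerhans and myeloid and 3 T cell genes were called, beside 1528 of 18397 among all genes. No Merkel cell gene passed the filter of the main fit. The melanocyte list summed to 49.98 and 44.5 CPM in members and 64.1 and 85.4 CPM in H19-low cells, led by Dct at 12.1 and 19.7 CPM in members. The Langerhans and myeloid list summed to 9.84 and 59.7 CPM in members and 27.6 and 52.4 CPM in H19-low cells, with Cd207 at 0 UMIs in members. The T cell list summed to 0.757 and 10.4 CPM in members and 4.07 and 5.98 CPM in H19-low cells, so members held more in KO mouse 2. Cd3d and Cd3g had 0 UMIs in members. The part of these cell types in the 819 calls beyond the removals given was not tested.

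**Figure D4:**
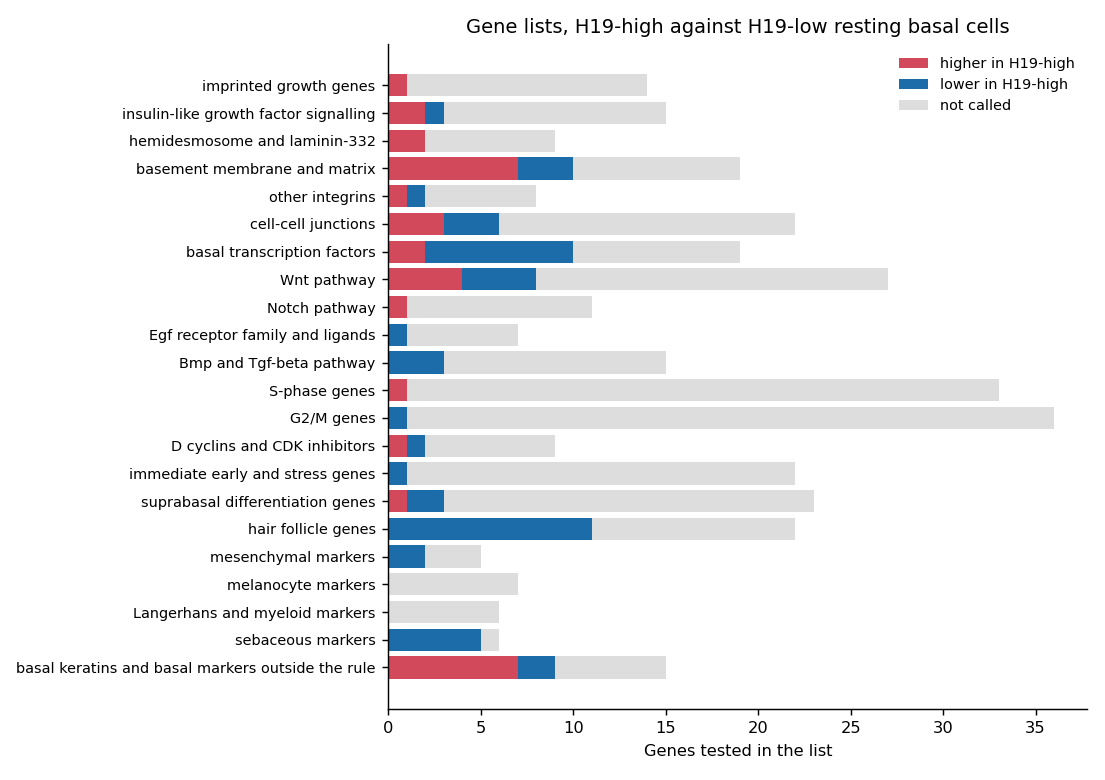
Number of tested genes in each gene list with at least 5 tested genes (horizontal axis), split into genes called higher in members, called lower and not called, over all resting basal cells. Hair follicle genes show 11 lower and 0 higher of 22, and basement membrane and matrix genes 7 higher and 3 lower of 19.

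Under the rule for named genes (at least 50 CPM in both mice of the higher class and the same direction in both mice) several further genes were among the 15 largest increases. Serpinb10, a serine protease inhibitor of the clade B serpins, had 76.0 and 54.2 CPM in members against 21.2 and 17.5 CPM (1.87 ± 0.18, adjusted p = 0.00083; without follicle-keratin cells 1.26, adjusted p = 0.0299). Rora, a nuclear receptor gene, had 94.9 and 66.5 CPM against 35.8 and 27.4 CPM (1.47 ± 0.23, adjusted p = 0.00611; without follicle-keratin cells 1.21, adjusted p = 0.0299). Cdc42ep5, an effector of Cdc42, and Fjx1 were higher in both settings too, with 1.11 ± 0.13 for each over all cells. The stefin genes BC100530 and Stfa1 (1.11 ± 0.22 and 1.06 ± 0.22; 1.03 and 0.91 without follicle-keratin cells and not called, adjusted p of 0.064 and 0.117) are near-identical copies, so their reads may be divided between them, and both were far higher in transitional cells, at 4741 and 5810 CPM for BC100530. The water and glycerol channel gene Aqp3 (1.04 ± 0.22), Gcat (1.09 ± 0.23) and Ifitm3 (1.03 ± 0.11) completed the set with the matrix and growth factor genes above. None of the last 3 was called without follicle-keratin cells, where they were at 0.72, 0.96 and 0.56. Transitional cells held more Gcat (298 and 334 CPM) and Aqp3 (300 and 207 CPM) than members (50.2 and 85.4 CPM, 178 and 131 CPM). Rora was nearly as high in transitional cells, at 89.2 and 59.4 CPM. Serpinb10 (8.18 and 7.53 CPM) and Ifitm3 (85.3 and 71.8 CPM, against 344.5 and 304.7 CPM in members) were lower there.

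The 15 largest decreases under that rule also included Acot1, an acyl-CoA thioesterase gene, at 11.1 and 14.6 CPM against 126 and 62.2 CPM (-2.69 ± 0.34, adjusted p = 0.00278; without follicle-keratin cells -1.12, adjusted p = 0.0192). Pou3f1, a POU transcription factor gene, had 215 and 285 CPM against 738 and 803 CPM (-1.49 ± 0.13, adjusted p = 0.000652; without follicle-keratin cells -1.06, adjusted p = 0.0269). Ccl27a, the gene of a chemokine that draws T cells to skin, had 35.6 and 38.0 CPM against 147 and 138 CPM (-1.82 ± 0.08, adjusted p = 1.03e-05; without follicle-keratin cells -1.58), and since its symbol labels several identifiers in the files its reads may be shared with copies. Creb5 and Basp1 were lower in both settings. Mgst1, Ly6g6c, Alcam, Hspb1 and Tuba1a were lower over all cells and not called without follicle-keratin cells (-0.85, -0.39, -0.60, 0.10 and -0.95). Hspb1 encodes a small heat shock protein. Apoe, a lipid carrier gene, was lower over all cells (-0.62 ± 0.16, adjusted p = 0.0456) and higher without them (0.55, adjusted p = 0.0185).

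Some further higher genes, chosen after their values were seen, were called in both settings. Lgals3, the gene of galectin-3, had 553 and 583.5 CPM in members against 324 and 321 CPM (0.94 ± 0.07, adjusted p = 0.00022; without follicle-keratin cells 0.76). Fth1, the ferritin heavy chain gene, had 3418 CPM in both mice against 2042 and 2219 CPM (0.81 ± 0.08, adjusted p = 0.00083; without follicle-keratin cells 0.50). Crip1 and S100a6 were larger without follicle-keratin cells, at 1.95 against 1.33 and at 1.36 against 0.67. Transitional cells held more Lgals3 than members, at 2194 and 2113 CPM, and less Fth1, at 1101 and 997 CPM. Crip1 was higher in cycling basal cells, at 85.7 and 104 CPM against 42.15 and 69.96 CPM in members.

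Over the 8 sums Igf2 had the highest correlation with H19 of 7452 genes with a mean of at least 10 CPM (Pearson r = 0.99 on log2 values), which describes sums that share mice and of which the H19-high sums were chosen by H19. Cotl1 (0.95), Wnt7b (0.94), Hint3 (0.94) and Fam81a (0.93) came next. With TMM-scaled values the next 4 were Blvrb, Prelid1, Mpc1 and Psat1, and only Igf2 was in both sets of 5.

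Each cell's UMIs were also split at random into 2 portions. Resting basal cells, still gated on all their UMIs, counted as H19-high with 4 or more H19 UMIs in 1 portion. They were measured on the other portion, so only the H19 limit was kept apart from the measured UMIs. H19 was still 1363 and 1373 CPM against 132 and 157 CPM. Igf2 then had 248 and 204 CPM against 33.2 and 32.1 CPM, and 527 of 10673 genes were called, of which 495 were among the 819. With all UMIs the H19 levels were the 1506 and 1457 CPM given above. Of the 19 cholinergic genes, among them Chrm3, 1 was tested and 0 were called in edgeR, and 11 had 0 UMIs in the members.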

How the data were processed

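The deposited counts were UMIs per gene and barcode that the authors made with Cell Ranger 3.0.2 on mm10 (per the labels and the study's methods, which name different versions of the Chromium 3′ chemistry). Positions come from GENCODE M21 (27645 of 27998 genes matched by identifier), and Serpinb10 had none. Cells were gated as described, UMIs were summed per mouse and class, and the 8 sums were fitted with edgeR 4.0.16 (R 4.3.3, filterByExpr, TMM scaling, quasi-likelihood test, Benjamini-Hochberg adjustment over all tested genes, 4 residual degrees of freedom, common biological coefficient of variation 0.103). With 2 mice, p-values rest on the spread between sums of 2 animals. Each SE of a log2 fold change is its absolute value divided by the square root of the F statistic of the quasi-likelihood test. It therefore rests on the spread shared by the 4 classes and is not a spread between the 2 mice alone. TMM put log2 fold changes 0.13 above those of plain CPM, where the median of all genes was -0.12, and 0 of 819 called genes changed direction. The rule's 9 genes stayed in the fit but got no p. The fit was tested on simulated data.

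Both mice gave a sum of every class, so sums pair by animal, and their deviations correlated at 0.155 to 0.399 in the 6 pairs of classes, and the mouse as a block was an alternative. Others were DESeq2 1.42.0, its size factors, no filter on low counts, other H19 limits, matched depth, split UMIs, a mitochondrial limit of 5%, doublet removal with Scrublet (scanpy 1.11.5) and leaving out each sum. Matched depth means here that only cells with 8000 to 16000 UMIs were used, and the depths of the classes within that window were not compared. The automatic Scrublet limit marked 2 of 7607 cells in KO mouse 1 and so failed there; the limit of KO mouse 2 (0.219), applied to both after seeing the data, marked 176 and 475 cells, and 1.475% and 2.455% of members. Doublets stayed in the main fit.

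Named genes were those of the rule and the markers; the 15 largest called genes in each direction with at least 50 CPM in both mice of the higher class and the same direction in both mice, unannotated models left out; up to 4 called genes per list, plus any with a role described; and the 5 most like H19. The members and the 25 lists (420 genes outside the rule, of which 346 were tested) were chosen with earlier results of these data known. Promoter windows and microRNAs come from RefSeq tables on GRCm38.p6; 4 genes with windows were matched.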

Additional observations from a re-analysis of the deposited data

Results flagged for a closer look

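Barcodes over the mitochondrial limit, which no comparison used, also held H19 when they met the other gates. In KO mouse 1 the 178 such barcodes gave 294.9 CPM of H19, and 8 of them had 8 or more H19 UMIs. In KO mouse 2 the 309 such barcodes gave 370.1 CPM, and 13 had 8 or more. A count of 0 would have allowed up to 3.17 and 2.40 CPM. These barcodes were not split by H19, so their level is of another kind than those of members or of H19-low cells. H19-high barcodes were 4.494% and 4.207% of them, against 18% and 19.89% of kept resting basal cells. Median depths of the barcodes over the limit were 3210 and 2848 UMIs, so a limit of 8 UMIs was harder to reach than in kept cells.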

How the results depend on the processing

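Of the 819 called genes, all that had a value kept their direction under DESeq2 (670 calls), DESeq2 size factors (845), no filter on low counts (1528), the replicate block (2256), other H19 limits (792 to 1128), matched depth (552), split UMIs (527) and both doublet removals (857 and 878). Fewer calls came with cells under 5% mitochondrial UMIs (15) and without follicle-keratin cells (141). Leaving out a sum gave 252 to 688 calls and 35 to 71 called list genes, against 78 in all sums. List genes called numbered 149 without a filter, 164 with the block, 9 under 5% mitochondrial UMIs and 17 without follicle-keratin cells. The block changed no call of a named called gene. Of the 819, 732 of 753 with a value kept their direction without follicle-keratin cells and 711 of 732 under 5% mitochondrial UMIs. Among the named genes the reversed values were, without follicle-keratin cells, Hspb1 0.098, Ccnd1 0.173, Cst6 0.058 and Apoe 0.55, and under 5% mitochondrial UMIs Evpl -0.35; the cause was not tested. Of the named called genes with a value, 10 of 108 were not called under DESeq2, 63 of 103 without follicle-keratin cells and 96 of 106 under 5% mitochondrial UMIs.

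The share of members among resting basal cells was 12.42% at 12 UMIs, 26.11% at 5 UMIs, 17.53% at 0.08% of UMIs, 25.43% at matched depth, 5.965% under 5% mitochondrial UMIs and 30.71% without follicle-keratin cells. Among all kept cells it was 3.145%, 6.612%, 7.484%, 0.7644% and 12.65% at 12 UMIs, 5 UMIs, matched depth, under 5% mitochondrial UMIs and without follicle-keratin cells.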
